A study of Danio rerio with 6 samples.

Results

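The smooth muscle and pericyte genes described here are those of 10 symbols taken from textbook markers of vascular and visceral smooth muscle and of pericytes: acta2, tagln, cnn1b, myh11a, pdgfra, pdgfrb, desma, lmod1b, mylka and myl9a. They were chosen by symbol and not by their values, though earlier results of these data were known. Of the 10, 7 were among the 14781 symbols of the count table, and cnn1b, lmod1b and mylka were not analysed here. One of the 7, pdgfrb, had no read in any library, so 6 were tested among 12821 genes with enough counts. The samples were zebrafish tumours labelled as peripheral sympathetic nervous system. The fish overexpressed MYCN and lacked gas7 by knockout in 3 libraries, called knockout here, and overexpressed MYCN only in the other 3, called MYCN-only. Overexpression of MYCN is thus common to all 6 libraries, with no library of normal tissue beside them. The labels do not give the promoter of the transgene, the mutation of gas7, or the age, sex or strain of the fish, nor do they say whether each library is 1 fish. The p-values therefore cover the variation among the 6 samples, which may be partly technical.

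Smooth muscle cells and pericytes are the mural cells that wrap blood vessels, and smooth muscle also forms the wall of the gut and of other hollow organs. Their contractile apparatus pulls smooth muscle actin filaments with a smooth muscle myosin, which is switched on when myosin light chain kinase phosphorylates the regulatory light chain. Serum response factor and its partner myocardin switch on most of these genes. Mural cells are recruited to vessels by platelet-derived growth factor (PDGF), which endothelium releases and which PDGF receptors on the mural cells read. In neuroblastoma such cells are generally counted as stroma. Which cells of these tumours gave the reads of the members was not tested.

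Total counts ran from 12054844 to 33305326, and every knockout library was deeper than every MYCN-only library. The noradrenergic genes th and dbh, which encode enzymes of catecholamine synthesis, were read at 1664 CPM (reads of a gene relative to the scaled library total) or more and at 1402 CPM or more in every library, so these defining markers of the labelled tissue were present. Levels of oocyte genes separated knockout libraries 2 and 3 from the remaining 4. The summed level of 27 ovary and oocyte genes was 8972 and 11813 CPM in these, 51.7 CPM in knockout library 1 and 32.2 to 37.6 CPM in the MYCN-only libraries. Results for the members and medians of the lists are therefore also given without knockout library 1, the knockout library low in these genes, and for knockout library 1 alone. Without knockout library 1, every knockout library left was high in oocyte genes and no MYCN-only library was. In that comparison, here and below, genotype and ovary content cannot be told apart.

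The 5 tested contractile and cytoskeletal members had lower mean levels in the knockout tumours, lowest in knockout libraries 2 and 3, but edgeR called none of them over all genes (adjusted p = 0.192 to 0.385), and for tagln and desma the libraries overlapped. The smooth muscle actin gene acta2 had 46.3, 11.4 and 8.14 CPM in knockout libraries 1, 2 and 3 and 91.5, 149 and 58.3 CPM in MYCN-only libraries 1, 2 and 3. All 3 knockout libraries lay below all MYCN-only libraries, with knockout library 1 nearer to MYCN-only library 3 than to the other knockout libraries. The means were 21.9 ± 21.1 and 99.5 ± 45.7 CPM (SD, n = 3 each). The log2 fold change of -2.18 had a 95% interval from -3.96 to -0.41 and did not pass over all genes (edgeR quasi-likelihood adjusted p = 0.212). DESeq2 called it on the same counts (adjusted p = 0.0376), and so did edgeR without knockout library 1 (log2 fold change -3.34, adjusted p = 0.0103). With knockout library 1 alone, the value was -1.09 (edgeR adjusted p = 0.38). In bulk tumour RNA, fewer cells of a type and less RNA per cell cannot be told apart, here and below.

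The smooth muscle myosin heavy chain gene myh11a, the motor of the contractile apparatus, was the steadiest of the genes within MYCN-only. MYCN-only libraries 1, 2 and 3 had 256, 245 and 237 CPM, and the highest was 1.08 times the lowest. In knockout libraries 1, 2 and 3 it was read at 162, 118 and 80.4 CPM, all below the MYCN-only range. The knockout mean was 48.8% of the MYCN-only mean, at 119.9 ± 40.8 against 245.9 ± 9.996 CPM (SD, n = 3). Its log2 fold change was -1.04 (95% interval -1.75 to -0.32) with the smallest unadjusted p of the members, 0.0114, and it did not pass over all genes (edgeR adjusted p = 0.192). Without knockout library 1 it was -1.31 (edgeR adjusted p = 0.0177), with knockout library 1 alone -0.59 (edgeR adjusted p = 0.283), and in DESeq2 it passed at an adjusted p of 0.0381.

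The gene myl9a encodes the regulatory light chain of smooth muscle myosin, whose phosphorylation starts contraction. Its levels were 12.6, 3.81 and 3.55 CPM in knockout libraries 1, 2 and 3 and 14.8, 22.7 and 12.6 CPM in MYCN-only libraries 1, 2 and 3. Knockout library 1 and MYCN-only library 3 differed by less than counting error (12.56 and 12.64 CPM, from 242 and 219 counts). Its log2 fold change, -1.33 with an SE of 0.59, therefore depends on knockout libraries 2 and 3 (edgeR adjusted p = 0.279). It was -2.18 without knockout library 1 (edgeR adjusted p = 0.0195) and -0.39 with that library alone (edgeR adjusted p = 0.666).

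The gene tagln encodes transgelin, an actin-binding protein of the smooth muscle cytoskeleton that is used as an early marker of the lineage. Knockout libraries 1, 2 and 3 had 17.2, 11.1 and 6.29 CPM. In MYCN-only libraries 1, 2 and 3 it stood at 28.7, 42.4 and 17.2 CPM. The groups touched, since knockout library 1 (17.24 CPM) lay just above MYCN-only library 3 (17.20 CPM). The log2 fold change was -1.35 (95% interval -2.53 to -0.17), with an edgeR adjusted p of 0.224, 0.0648 without knockout library 1 and 0.0914 in DESeq2. With knockout library 1 alone the log2 fold change was -0.75 (edgeR adjusted p = 0.512).

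Desmin, encoded by desma, is the intermediate filament protein of smooth, skeletal and heart muscle. Its levels spread most of all members, at 30.4, 4.41 and 4.201 CPM in knockout libraries 1, 2 and 3 and 25.2, 136 and 8.08 CPM in MYCN-only libraries 1, 2 and 3. MYCN-only library 2 alone stood above 100 CPM, knockout library 1 exceeded both other MYCN-only libraries, and within MYCN-only the highest level was 16.8 times the lowest. Its log2 fold change, -2.12 with an SE of 1.23 (edgeR adjusted p = 0.385), became -0.34 without MYCN-only library 2 (edgeR adjusted p = 0.915) and -3.71 without knockout library 1 (edgeR adjusted p = 0.107). Genes of skeletal muscle were also highest in MYCN-only library 2. The contractile, smooth muscle transcription factor and fibroblast lists described below also had their highest mean log2 level there. The summed level of 39 skeletal muscle genes was 7525 CPM there, 1277 and 343 CPM in MYCN-only libraries 1 and 3 and 611 to 1804 CPM in the knockout libraries. Their part in the desma level was not tested.

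**Figure D1:**
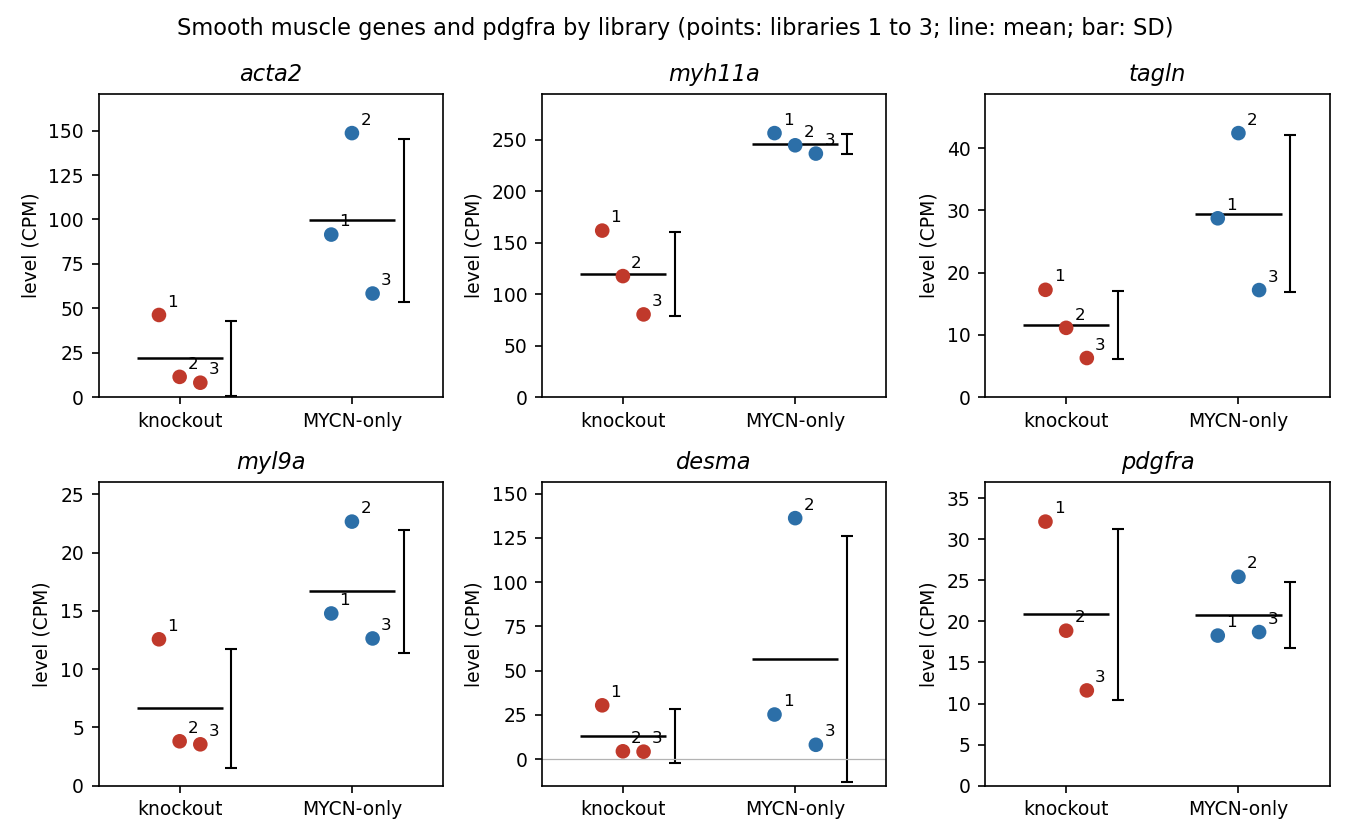
Levels in CPM of acta2, myh11a, tagln, myl9a, desma and pdgfra in each library (points, numbered 1 to 3 within knockout in red and MYCN-only in blue), with the mean (line) and the SD of 3 libraries (bar). The groups do not overlap for acta2, myh11a and myl9a, desma is high in MYCN-only library 2, and pdgfra has nearly equal means of 20.9 and 20.8 CPM.

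Of the receptor genes, pdgfra had nearly equal group means and pdgfrb had no reads. The gene pdgfra encodes the PDGF receptor of fibroblasts and other mesenchymal cells, which binds PDGF-A among other ligands. Its levels were 32.1, 18.9 and 11.6 CPM in knockout libraries 1, 2 and 3, beside 18.3, 25.4 and 18.7 CPM in MYCN-only libraries 1, 2 and 3. The knockout libraries held both the highest and the lowest level of the 6, and the means were 20.9 ± 10.4 and 20.8 ± 4.01 CPM (SD, n = 3). The 95% interval of the log2 fold change, not adjusted, ran from -0.99 to 0.99 and held changes of up to almost 2-fold either way. The log2 fold change itself was 0.00 (edgeR adjusted p = 0.997), and its sign turned with the scaling and the libraries used. It was 0.64 with knockout library 1 alone and -0.45 without it (edgeR adjusted p = 0.348 and 0.375).

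The gene pdgfrb encodes the receptor through which PDGF-B recruits pericytes, and it is the most used pericyte marker of the 10. It had 0 reads among 122753559 counts of the 6 libraries. A count of 0 allows up to 3 counts a library, which is 0.0977 CPM in the deepest and 0.267 CPM in the shallowest library, and covers counting error only. The table held 508 symbols with 0 reads in every library, and neither the annotation nor the handling of reads with several matches is stated in the sources used. Other genes listed for pericytes were read in the same libraries, such as notch3 at 40.5 to 151 CPM and abcc9 at 63.9 to 111 CPM. Why pdgfrb had no reads was not tested, and its 0 gives no measure of how many pericytes the tumours held.

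As a group, 5 of the 6 tested members had a log2 fold change below 0, with a median of -1.34, where 47.6% of all tested genes lay below 0 and their median was 0.04. In 3 members the knockout libraries were all below the lowest MYCN-only library, which held for 12.3% of all tested genes, and in 0 members all above the highest, which held for 11.6%. At an unadjusted p under 0.05, 3 members (myh11a, acta2 and tagln) were lower and 0 higher, where 7.57% of all tested genes were lower and 11.5% higher. Over all genes, edgeR called 0 members at an adjusted p under 0.05, as it called 0% of all genes. Without knockout library 1 it called acta2, myh11a and myl9a as lower, with a median of -1.97, beside 3.51% of all genes called lower and 11.2% called higher. DESeq2 called acta2 and myh11a, beside 4.02% of all genes called lower and 6.29% called higher. With knockout library 1 alone, which is assumed to vary like the MYCN-only libraries, 0 members were called, beside 0% of all genes called lower and 0.0682% called higher (edgeR; 0 members at an unadjusted p under 0.05), and the median was -0.67. The comparisons with and without knockout library 1 share the MYCN-only libraries. Calls made without knockout library 1 rest on knockout libraries 2 and 3, which were high in oocyte genes, so they cannot be assigned to genotype. Every tested member had at least 102 counts in every library, a counting error of at most 9.9%, so the spread between libraries was not set by counting.

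**Figure D2:**
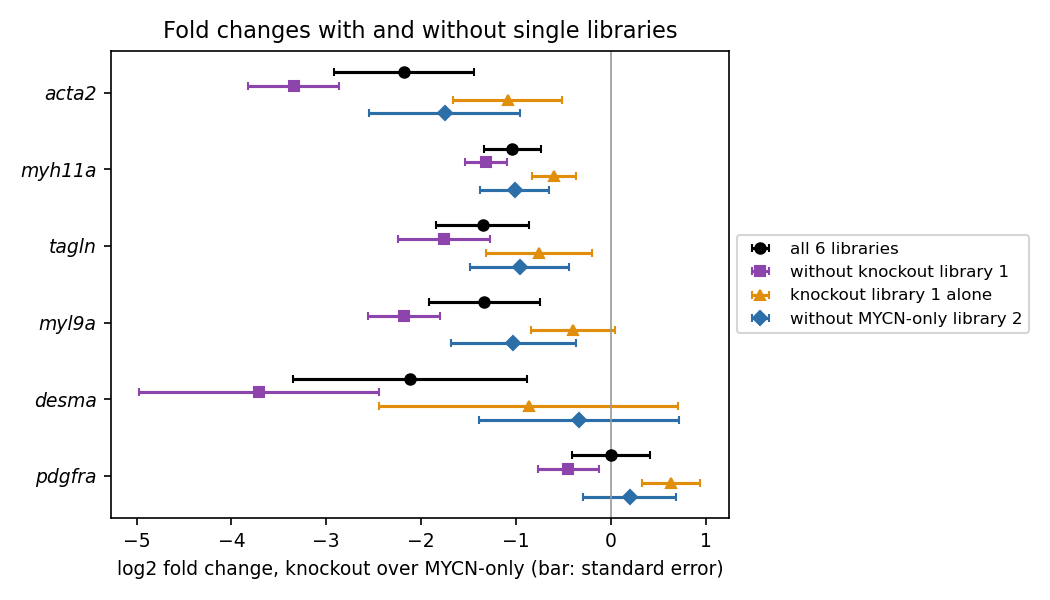
Log2 fold changes of knockout over MYCN-only (points) with their standard errors (bars) for the 6 tested members, from edgeR on all 6 libraries and with libraries left out. Values without knockout library 1 lie furthest below 0, values of knockout library 1 alone lie nearer to 0 or, for pdgfra, above it at 0.64, and desma moves from -2.12 to -0.34 without MYCN-only library 2.

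The members also differed among themselves in how their levels ran over the 6 libraries. Likeness was measured as the root mean square difference between log2 CPM profiles, each centred on its own mean. The closest pair was tagln and myl9a, 0.36 log2 units apart, followed by myh11a and tagln at 0.41. The furthest pair was desma and pdgfra, at 1.49. The regulatory light chain gene myl9a lay closest to the mean profile of the 6 (0.19), tagln next (0.23), and desma (0.92) and pdgfra (0.73) furthest. Knockout library 3 was lowest in all 6 genes, with desma (4.201 CPM against 4.408 CPM in knockout library 2) and myl9a separated from knockout library 2 by less than counting error. For acta2, tagln, myl9a and desma the highest level was in MYCN-only library 2. For myh11a it was in MYCN-only library 1, and for pdgfra in knockout library 1.

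The paralogs of the members were read next, since similar copies can share reads and since other copies of a gene may serve other muscles. Among the other alpha-actin genes, the heart and skeletal muscle copies actc1a and acta1a were at 1.33 ± 0.854 against 9.40 ± 4.40 CPM and at 5.83 ± 0.848 against 11.7 ± 4.16 CPM (SD, n = 3). Both were below the MYCN-only range in every knockout library (log2 fold changes -2.82 and -1.0; edgeR adjusted p = 0.175 and 0.244). Another copy, actc1b, was read at 2115 CPM in MYCN-only library 2, at 351 and 74.0 CPM in the other MYCN-only libraries and at 79.7 to 192 CPM in knockout, and the groups overlapped. Actin copies are alike in coding sequence, and how the authors' counting divided reads between them is not given, so the values of acta2 and its copies are uncertain to that extent. Among relatives of the heavy chain gene myh11a, myh9a was measured, and it lay in the other direction. On all 6 libraries edgeR did not call myh9a, as it called 0 of the 12821 tested genes. The log2 fold change of myh9a was 2.04 in DESeq2 (adjusted p = 0.0414) and 2.53 without knockout library 1 (edgeR adjusted p = 0.00382). With knockout library 1 alone it was -0.22. The second regulatory light chain gene, myl9b, was at 68.9, 11.2 and 13.97 CPM in knockout libraries 1, 2 and 3 and at 40.8 to 51.7 CPM in MYCN-only. Knockout library 1 was thus the highest and knockout libraries 2 and 3 the lowest, and the log2 fold change of -0.62 (edgeR adjusted p = 0.667) became -1.93 without knockout library 1 (edgeR adjusted p = 0.00664). The second desmin gene, desmb, had 1.92, 2.02 and 8.43 CPM in knockout libraries 1, 2 and 3 against 15.9, 7.38 and 6.75 CPM in MYCN-only libraries 1, 2 and 3, so that it was not high in MYCN-only library 2 as desma was.

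Calponins and transgelins, actin-binding proteins of one family, gave no common direction over all 6 libraries. The calponin gene cnn1a had reads in knockout library 3 alone, at 1.43 CPM. The non-muscle calponin genes cnn2 and cnn3a had log2 fold changes of -0.43 and -0.35, and cnn3b one of 1.09, at 58.6 ± 27.8 against 27.6 ± 5.46 CPM (SD, n = 3; edgeR adjusted p = 0.244). The 3 relatives of tagln, namely tagln2, tagln3a and tagln3b, lay at 0.48, -0.11 and 0.26, and the libraries overlapped in all of them. Without knockout library 1, cnn2, cnn3a and cnn3b were at -1.23, -1.31 and 1.42, and tagln2, tagln3a and tagln3b at -0.72, -0.55 and -0.0035. With knockout library 1 alone the values were 0.47, 0.65, 0.011, 1.58, 0.49 and 0.67 in the same order. Among leiomodins, which seed actin filaments in muscle, lmod2a was measured, at 0.986, 0.56 and 0.619 CPM in knockout libraries 1, 2 and 3 and 6.61, 7.73 and 3.40 CPM in MYCN-only libraries 1, 2 and 3. It had the smallest p of the 33 tested contractile genes and paralogs (log2 fold change -3.03, SE 0.54; edgeR adjusted p = 0.174; DESeq2 adjusted p = 4.24e-06).

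Over that whole list of contractile genes and paralogs, 25 of 33 were lower and 8 higher, and the median of the log2 fold changes was -0.62. In 8 of 33 the knockout libraries all lay below the MYCN-only range and in 2 above it, beside 12.3% and 11.6% of all tested genes. edgeR called 0 of them over all genes. At an unadjusted p under 0.05, 12 were lower and 4 higher, beside 7.57% and 11.5% of all tested genes. DESeq2 called 9 lower and 2 higher, beside 4.02% and 6.29% of all tested genes. The list is not of smooth muscle alone, since it also holds copies that may serve heart and skeletal muscle. The alpha-actin copies actc1a and acta1b were among the 9 called lower. How much such copies gave to the counts of this list was not tested. Without knockout library 1 edgeR called 6 lower and 2 higher (median -1.15), beside 3.51% and 11.2% of all genes, and with it alone 0 (median -0.41; edgeR). The 2 genes higher in every knockout library were myl12.2 and myl6. The first, which encodes a regulatory light chain of non-muscle myosin, was at 62.0 ± 10.5 against 33.6 ± 2.41 CPM (SD, n = 3; log2 fold change 0.89, edgeR adjusted p = 0.182). For myl6, another myosin light chain gene, the DESeq2 log2 fold change was 0.81 (adjusted p = 0.104). The PDZ-LIM gene pdlim3a, whose product binds alpha-actinin in muscle, had 0.571, 0.0747 and 0.0977 CPM in knockout libraries 1, 2 and 3, against 1.67 to 4.18 CPM in MYCN-only. The values of knockout libraries 2 and 3 were at or below the floor of 3 counts, which is 0.112 and 0.0977 CPM there.

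**Figure D3:**
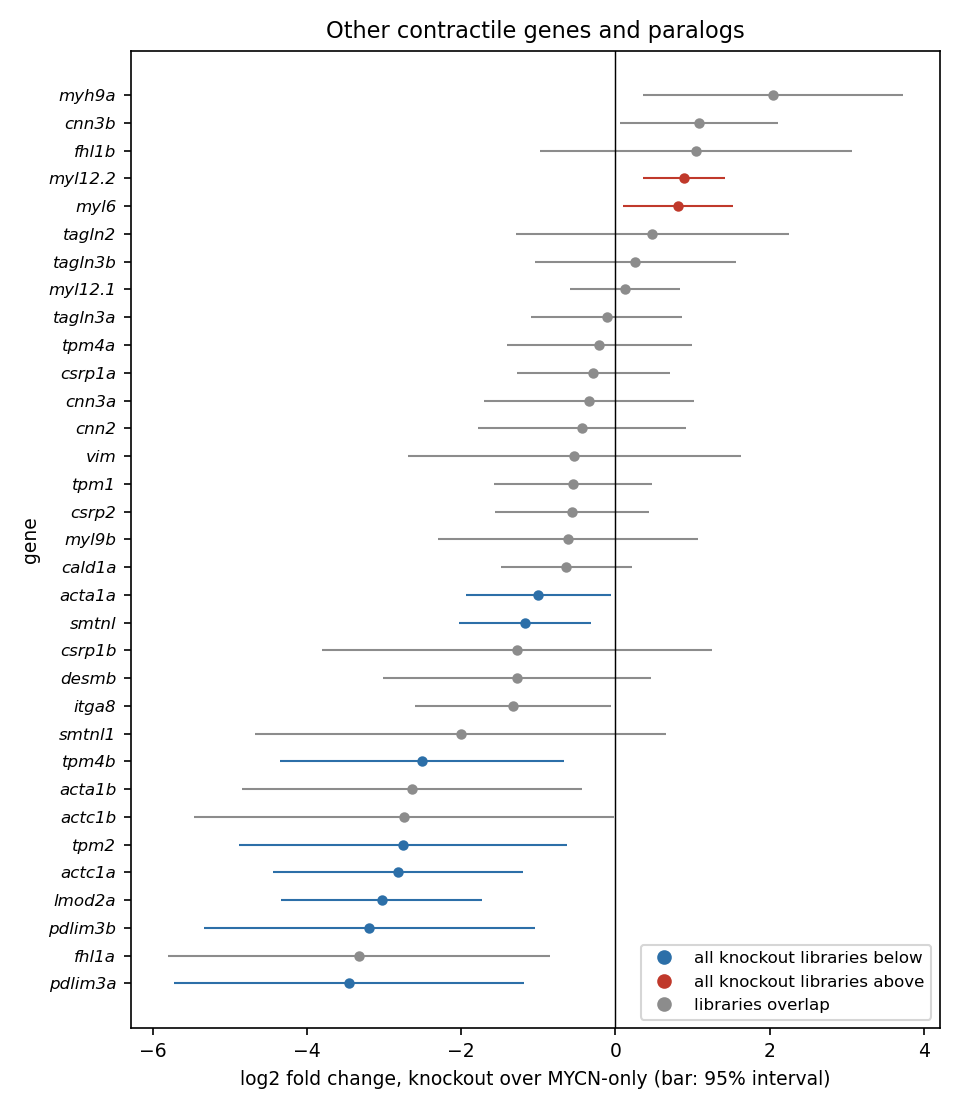
Log2 fold changes of knockout over MYCN-only with 95% intervals (edgeR, all 6 libraries) for the 33 tested contractile genes and paralogs, ordered by value. Blue marks 8 genes in which all knockout libraries lay below all MYCN-only libraries, red the 2 in which they lay above (myl12.2 and myl6), and grey the rest.

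Signals that start and stop contraction had a median log2 fold change near 0 as a list, and the smallest p-values were those of genes of the nitric oxide branch and of a phosphatase inhibitor. Nitric oxide relaxes smooth muscle by way of guanylate cyclase, which makes cyclic GMP, and phosphodiesterase 5 breaks cyclic GMP down. The phosphodiesterase gene pde5ab had 7.79, 4.67 and 7.23 CPM in knockout libraries 1, 2 and 3 and 36.1, 38.6 and 15.9 CPM in MYCN-only libraries 1, 2 and 3, with no overlap (log2 fold change -2.2, SE 0.43; edgeR adjusted p = 0.174; DESeq2 adjusted p = 0.000218). The cyclase subunit gene gucy1a3 was at 0.431 ± 0.395 against 3.77 ± 2.32 CPM (SD, n = 3; log2 fold change -3.14, edgeR adjusted p = 0.19), while the partner subunit gene gucy1b3 overlapped, at 31.3, 9.26 and 6.22 CPM in knockout libraries and 16.3 to 27.1 CPM in MYCN-only. The gene ppp1r14aa, whose product inhibits myosin phosphatase and so prolongs contraction, lay in the other direction. It was at 3.12, 13.97 and 18.2 CPM in knockout libraries 1, 2 and 3 and at 1.33 to 2.22 CPM in MYCN-only (log2 fold change 2.69, SE 0.70; edgeR adjusted p = 0.183), and its copy ppp1r14ab was at 4.25 ± 0.402 against 2.05 ± 0.682 CPM (SD, n = 3; edgeR adjusted p = 0.271). Of the 26 tested genes of this list, 17 were lower and 9 higher, the median was -0.16, and edgeR called 0 over all genes. At an unadjusted edgeR p under 0.05, 2 were lower and 1 higher, beside 7.57% and 11.5% of all tested genes. Without knockout library 1 edgeR called 5 lower and 1 higher, beside 3.51% and 11.2% of all genes. The median was -0.17 without knockout library 1 and -0.17 with it alone. The kinase genes rock1 and rock2a, which keep myosin phosphorylated, had log2 fold changes of -0.16 and -0.18.

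Transcription factors of smooth muscle were lower in 18 of 19 tested genes, where 47.6% of all tested genes were lower. Their median was -0.74, and edgeR called 0 over all genes. At an unadjusted edgeR p under 0.05, 4 were lower and 0 higher, beside 7.57% and 11.5% of all tested genes. Without knockout library 1 edgeR called 2 as lower, beside 3.51% of all genes. The medians were -0.76 without knockout library 1 and -0.45 with it alone. The 2 serum response factor genes, srfa and srfb, stood at 20.2 ± 4.96 against 25.5 ± 2.18 CPM and at 2.08 ± 0.918 against 3.74 ± 0.966 CPM (SD, n = 3; edgeR adjusted p = 0.53 and 0.419). Myocardin itself was not analysed here. The smallest p was that of meis1a, a homeobox gene active in many tissues, at 6.23, 4.18 and 7.75 CPM in knockout libraries 1, 2 and 3 and 27.5, 33.5 and 13.6 CPM in MYCN-only (log2 fold change -2.04, SE 0.44; edgeR adjusted p = 0.174). The muscle factor genes mef2d and mef2ca were lower in every knockout library, at 49.5 ± 1.64 against 77.3 ± 16.8 CPM and 9.82 ± 1.0 against 21.6 ± 13.1 CPM (SD, n = 3; edgeR adjusted p = 0.219 and 0.255).

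Among PDGF ligands, pdgfaa was below the MYCN-only range in every knockout library, at 15.8, 17.7 and 7.62 CPM against 24.0, 22.2 and 27.9 CPM (log2 fold change -0.85, SE 0.37; edgeR adjusted p = 0.274). The second copy, pdgfab, overlapped, with a log2 fold change of -0.37 (edgeR adjusted p = 0.715). The PDGF-B genes were not analysed here. The gene kita, which encodes a receptor tyrosine kinase of the same family as the PDGF receptors, was at 9.18 ± 1.55 against 24.4 ± 6.55 CPM (SD, n = 3; log2 fold change -1.41, edgeR adjusted p = 0.174). All 6 tested genes of the list of PDGF ligands and related receptors were lower (median -0.97), where 47.6% of all tested genes were lower. The receptor gene csf1ra was lower by almost nothing (DESeq2 log2 fold change -0.0086). With knockout library 1 alone, csf1ra and pdgfab were at 0.51 and 0.0082, and the rest of the list lay below 0. edgeR called 0 over all genes. The unadjusted edgeR p was under 0.05 in 1 lower and 0 higher, beside 7.57% and 11.5% of all tested genes. When knockout library 1 was left out, edgeR called 1, kita, as lower, beside 3.51% of all genes. The medians were -0.97 without knockout library 1 and -0.84 with it alone.

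Other pericyte genes were lower in 21 of 30 tested, with a median of -0.53, and in 7 of the 30 no knockout library reached the MYCN-only range, beside 12.3% of all tested genes. The Notch receptor gene notch3, which mural cells need to mature, had 83.8, 54.1 and 40.5 CPM in knockout libraries 1, 2 and 3 and 127, 151 and 133 CPM in MYCN-only libraries 1, 2 and 3. All knockout libraries were lower, and MYCN-only varied little (log2 fold change -1.21, SE 0.31; edgeR adjusted p = 0.183; without knockout library 1, edgeR adjusted p = 0.00903). The laminin genes lama2 and lamb1a, parts of the basement membrane around muscle and vessels, had log2 fold changes of -2.12 and -0.94 (edgeR adjusted p = 0.174 and 0.192). The gene anpepb, which encodes an aminopeptidase of pericytes and also of intestinal epithelium, was at 84.5, 10.8 and 72.6 CPM in MYCN-only libraries 1, 2 and 3. It was thus low in MYCN-only library 2, where acta2, tagln and desma were high. The regulator of G protein signalling genes rgs5a and rgs5b, pericyte markers in mouse, were highest in knockout library 1, at 6009 and 51.2 CPM, and overlapped otherwise. In that library rgs5a gave 6009 of the summed 8202 CPM of the list. Which cells gave these reads was not tested. Over the list, edgeR called 0 over all genes. The unadjusted edgeR p was under 0.05 in 5 lower and 0 higher, beside 7.57% and 11.5% of all tested genes. Without knockout library 1 edgeR called 7 as lower, beside 3.51% of all genes. DESeq2 called 4 as lower, beside 4.02% of all genes. The median was -1.08 without knockout library 1 and 0.05 with that library alone, and the mean of the list in knockout library 1 (4.88 log2 CPM) was above all MYCN-only libraries (4.49 to 4.84 log2 CPM).

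Genes of other cell types moved with the same libraries, and their part in the results was not tested. Intestinal epithelium, which in the gut wall lies next to smooth muscle, was lower in all 20 tested genes (median -2.82, -4.34 without knockout library 1 and -1.61 with it alone). Its mean was 6.71, 5.32 and 6.98 log2 CPM in MYCN-only libraries 1, 2 and 3 against 2.82 to 4.49 log2 CPM in knockout, and its summed level over 22 genes was 4353, 13789 and 7204 CPM in MYCN-only libraries 1, 2 and 3 against 1457 to 8735 CPM in knockout. The microvillus gene vil1, for example, stood at 81.4 ± 41.0 against 5.449 ± 3.201 CPM (SD, n = 3; edgeR adjusted p = 0.174). MYCN-only library 2, the highest for 4 members, thus had the lowest mean log2 level of intestinal genes among the MYCN-only libraries. Its summed level was the highest, but 1 gene, apoa1b, gave 11346 of its 13789 CPM. The same gene gave 7448 of the 8735 CPM in knockout library 1, so these 2 sums rest mostly on apoa1b. Fibroblast genes were lower in 14 of 15 tested (median -1.21, -1.49 without knockout library 1 and -1.03 with it alone), with a summed level over 18 genes of 1198 to 2628 CPM in knockout and 2593, 8253 and 2496 CPM in MYCN-only libraries 1, 2 and 3, and fbln1 was at 0 in all libraries. The matrix genes sparc and postnb had log2 fold changes of -2.14 and -1.21 (edgeR adjusted p = 0.174 and 0.187).

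Skeletal muscle genes were lower in 29 of 39 (median -1.34, -1.89 without knockout library 1 and -1.33 with it alone), and heart muscle genes in 8 of 10 (median -1.17, -0.95 and -1.88 in the same order). Both lists were highest in MYCN-only library 2. The calcium pump gene atp2a1 of skeletal muscle was at 1598 CPM there, 42.0 and 214 CPM in the other MYCN-only libraries and 8.48 to 27.5 CPM in knockout. Endothelial genes, whose cells line the vessels that mural cells wrap, were lower in 17 of 26 (median -0.21). The direction depended on the libraries, with a median of -1.04 without knockout library 1 and 0.52 with it alone. Their summed level was 560 to 1880 CPM in knockout and 992 to 1190 CPM in MYCN-only. Knockout library 1 had the highest and knockout libraries 2 and 3 the lowest level, as for the pericyte list. The endothelial cadherin gene cdh5, named after its values were seen, was at 76.7, 23.9 and 26.2 CPM in knockout libraries 1, 2 and 3 and at 58.3 to 69.1 CPM in MYCN-only. Not every endothelial gene ran this way. With knockout library 1 alone, esama and egfl7 had log2 fold changes of -0.85 and -0.61, against the list median of 0.52. Ovary and oocyte genes were higher in 18 of 22 tested (median 7.99, 8.56 without knockout library 1 and 0.89 over 20 genes with it alone), and h1m was at 0 in all libraries. Noradrenergic genes were lower in 12 of 21 (median -0.15, -0.49 without knockout library 1 and -0.31 with it alone).

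edgeR called 0 genes of these 7 cell type lists over all genes. At an unadjusted p under 0.05, which 7.57% of all genes reached as lower and 11.5% as higher, the counts were 12 lower in intestinal epithelium, 5 lower and 1 higher in fibroblasts, 12 lower and 1 higher in skeletal muscle, 4 lower in heart muscle, 2 lower in endothelium, 1 lower and 16 higher in ovary and 4 lower in noradrenergic genes. DESeq2, which called 4.02% of all genes lower and 6.29% higher, called 11 lower in intestinal epithelium, 2 lower in fibroblasts, 10 lower and 1 higher in skeletal muscle, 3 lower in heart muscle, 1 lower in endothelium, 1 lower and 16 higher in ovary and 3 lower in noradrenergic genes. Without knockout library 1, where 3.51% of all genes were called lower and 11.2% higher, edgeR called 10 lower in intestinal epithelium, 2 lower in fibroblasts, 6 lower in endothelium, 17 higher in ovary, 1 lower in noradrenergic genes and 0 in skeletal and heart muscle. With knockout library 1 alone edgeR called 0 in these lists.

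**Figure D4:**
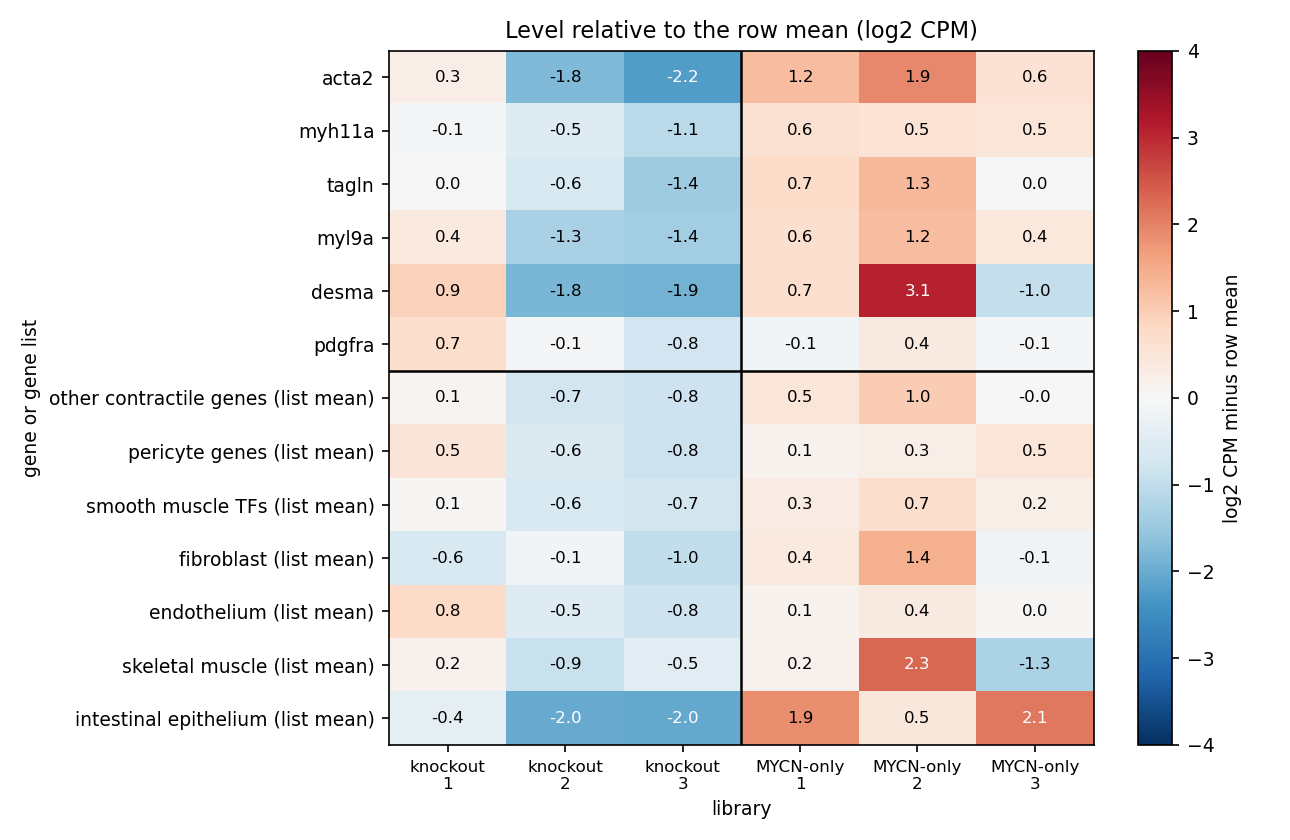
Level of each tested member (upper rows) and mean level of 7 gene lists (lower rows: other contractile, pericyte, smooth muscle transcription factor, fibroblast, endothelium, skeletal muscle and intestinal epithelium) in each library, as log2 CPM minus the mean of the row over the 6 libraries (red above, blue below). Knockout libraries 2 and 3 are below the row mean in every row shown, and knockout library 1 stands above them in all rows shown but the fibroblast one. MYCN-only library 2 is highest for acta2, tagln, myl9a and desma. It is also highest for the contractile, smooth muscle transcription factor, fibroblast and skeletal muscle lists.

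The 8 genes whose profiles over the 6 libraries were most like the mean profile of the members were picked by the root mean square difference of centred log2 CPM. They were picked among tested genes outside the members, leaving out placeholder symbols (starting si:, zgc:, im:, wu:, LOC or zmp:). They were plag1 (0.15), which encodes a zinc finger transcription factor, the epidermal growth factor receptor gene egfra (0.21), btbd11a (0.21), the cytochrome P450 gene cyp3a65 (0.22), the receptor tyrosine kinase gene erbb2 (0.24), the fatty acid hydroxylase gene fa2h (0.24), the homeobox gene hoxa5a (0.25) and ccdc85ca (0.25). None of the 8 was a listed smooth muscle gene. The first, plag1, had 6.18, 2.24 and 1.95 CPM in knockout libraries 1, 2 and 3 and 6.49, 12.8 and 5.94 CPM in MYCN-only libraries 1, 2 and 3. The receptor gene egfra was read at 54.5, 21.1 and 15.3 CPM and at 53.1, 89.2 and 30.8 CPM in the same order. In both, MYCN-only library 2 was highest and knockout libraries 2 and 3 lowest, as for acta2, tagln, myl9a and desma, while knockout library 1 lay within the MYCN-only range, as for tagln and desma.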

How the data were processed

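Per the labels' protocols, RNA of 6 zebrafish tumours went into stranded paired-end libraries of total RNA for Illumina sequencing. The deposited values are whole-number read counts per gene symbol, not normalized, and per the submitters' processing notes the authors used featureCounts 1.4.6 of Subread, TopHat2 2.0.14 and Bowtie2 2.2.6, with the danRer10 build. Strand setting, annotation and handling of reads with several matches are not stated in the sources used.

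Libraries were grouped by genotype. Genes were filtered with filterByExpr (count minimum 10), scaled by TMM and tested with edgeR's quasi-likelihood F test, with Benjamini-Hochberg adjusted p under 0.05 over all 12821 genes. Standard errors were derived from each log2 fold change and F value. A prior count of 2 was used for log2 CPM. The 12 gene lists were described by counts and medians, with no set test. List symbols were matched by symbol or RefSeq synonym (GRCz12tu). Named were all members, up to 4 genes with the smallest p of each list, paralogs and ligands, and the 8 most alike profiles among genes without placeholder symbols. Named outside this rule, with values known, were th, dbh, abcc9, rgs5a, rgs5b, rock1, rock2a, srfa, srfb, gucy1b3, myl6, apoa1b and cdh5. Members and lists were chosen with earlier results of these data known. The code was tested on simulated counts. With a coefficient of variation of 52.5%, as estimated over all genes here, edgeR recovered 4% of 2-fold, 16% of 4-fold and 74% of 8-fold changes. At 20% it recovered 66% of 2-fold and 100% of 4-fold changes. A count of 0 genes called therefore does not show that levels were equal. Alternatives were other scalings, filters, DESeq2, limma-voom, a replicate block and leaving out libraries. All pairs of libraries differed by more than sampling noise, so each counted as 1 sample. R 4.3.3, edgeR 4.0.16, limma 3.58.1, DESeq2 1.42.0 and Python 3.11.15 were used.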

Additional observations from a re-analysis of the deposited data

How the results depend on the processing

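The lower levels of acta2, myh11a, tagln, myl9a and desma kept their direction under every alternative run. edgeR called 0 members and 0 genes with TMM, DESeq2 size factors, upper-quartile factors and both other filters. DESeq2 called 2 members, 66 genes of the lists and 1323 genes, limma-voom 1 gene, and knockout library 1 alone 9 genes. Leaving out single libraries gave 0 to 3 of 6 members, 0 to 61 list genes and 0 to 1923 genes. The highest values came without knockout library 1, where 269 list genes and 13038 genes were tested. Without MYCN-only library 2 there were 4 of 13123 genes, 1 of them in a list. The member median ran from -1.97 to -0.99 when single libraries were left out and was -0.67 with knockout library 1 alone. Replicate numbers did not pair the libraries (correlations of same-numbered deviations -0.09, -0.15 and 0.19), and with the replicate block edgeR called 8 genes and 0 members. For pdgfra the sign turned, to -0.15 with upper-quartile factors, -0.022 with a count minimum of 50, -0.14 in limma-voom, -0.11 with the replicate block, -0.45 without knockout library 1, and -0.09 and -0.06 without MYCN-only library 1 or 3 (leaving out single libraries gave -0.45 to 0.30); the cause was not tested. Upper-quartile factors moved the median of all genes by -0.18. The lists were followed through these settings after seeing the data.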

Other observations

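Ratios of counts between members of the same library do not depend on the scaling of libraries. Of 7 ratios computed, chosen after the values were seen, 2 did not overlap between the groups. For single genes, all knockout libraries lay above in 11.6% and below in 12.3% of those tested. The share over all pairs of genes was not computed, so the 2 ratios are given as values only. Counts of tagln were 0.373, 0.974 and 0.772 times those of acta2 in knockout libraries 1, 2 and 3 and 0.314, 0.285 and 0.295 times in MYCN-only libraries 1, 2 and 3. Counts of pdgfra were 0.199, 0.16 and 0.144 times those of myh11a in knockout libraries 1, 2 and 3 and 0.0712, 0.104 and 0.079 times in the MYCN-only libraries. The other 5 overlapped. Among them the ratio of acta2 to myh11a was 0.286, 0.0972 and 0.101 in knockout and 0.357, 0.608 and 0.247 in MYCN-only libraries 1, 2 and 3. No test was run on these ratios.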
